A study of Mus musculus with 9 samples.

Results

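The 10 genes described here, Pdgfra, Cspg4, Lhfpl3, Olig1, Olig2, Sox10, Nkx2-2, Gpr17, Bcas1 and Enpp6, mark the oligodendrocyte lineage from the precursor to the cell that is about to make myelin. They were taken by symbol, and all 10 were found by Ensembl identifier among the 52550 genes of the count table. Sequencing covered the polyadenylated RNA of 9 mice (adult females, C57BL/6N), 3 in each group, taken 7 days after surgery from the piece of spinal cord that held the injury epicenter. Sham mice underwent laminectomy alone with no drug or vehicle named for them, SCI mice received a thoracic contusion followed by daily intraperitoneal vehicle (DMSO), and SCI+FIPI mice received the same contusion and daily FIPI, an inhibitor of phospholipase D, dissolved in DMSO. Phospholipase D is the enzyme that cuts phosphatidylcholine into phosphatidic acid and choline. All mice were unmodified animals of 1 strain. The Sham group therefore differs from SCI in the contusion and in the vehicle together, and these cannot be told apart.

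Oligodendrocyte precursors are dividing glia spread through the spinal cord. They carry the receptor for platelet-derived growth factor and the proteoglycan NG2 on their surface, switch these off as they commit, pass through a short premyelinating stage, and then make myelin. After contusion many oligodendrocytes die, and precursors near the lesion are known to divide and to form new oligodendrocytes. The markers are not exclusive to the lineage, since fibroblasts also use Pdgfra, pericytes use Cspg4, and Schwann cells, which can enter an injured cord, use Sox10.

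The total count per mouse lay between 20806000 and 24582377, and the 10 genes had between 217 and 15041 counts per mouse, so none was near the limit of detection. All 10 passed the filter on low counts with 18699 genes in all. Levels are given as CPM, counts scaled to a common library total, with totals adjusted by TMM. A gene was said to rise or fall when the log2 fold change was at least 0.5 in size and the Benjamini-Hochberg adjusted p of edgeR's quasi-likelihood test was under 0.05. An exact permutation test (two-sided) of a single gene with 3 mice a side has 0.1 as its smallest p, so it could not pass 0.05 and only the fit across all genes is used for calls. In tissue RNA, fewer cells of a type and less RNA per cell cannot be told apart.

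Compared with Sham, 3 of the 10 genes rose in SCI and 0 fell. These were Cspg4, Pdgfra and Gpr17. Of all genes tested, 47.0% passed both limits in this comparison, 24.4% as rises and 22.5% as falls, so the count of the 10 genes is not above the background. The median log2 fold change of the 10 genes was 0.09, and that of all genes tested was -0.003. With the adjusted p alone, 7 of the 10 genes passed, against 65.9% of all genes. The SCI and Sham mice did not overlap for 6 of the 10 genes, 4 of them higher and 2 lower in SCI, against 70.5% of all genes, 35.6% higher and 35.0% lower. In SCI+FIPI compared with SCI, 0 of the 10 genes passed both limits, against 3.06% of all genes, 2.36% as rises and 0.695% as falls.

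**Figure D1:**
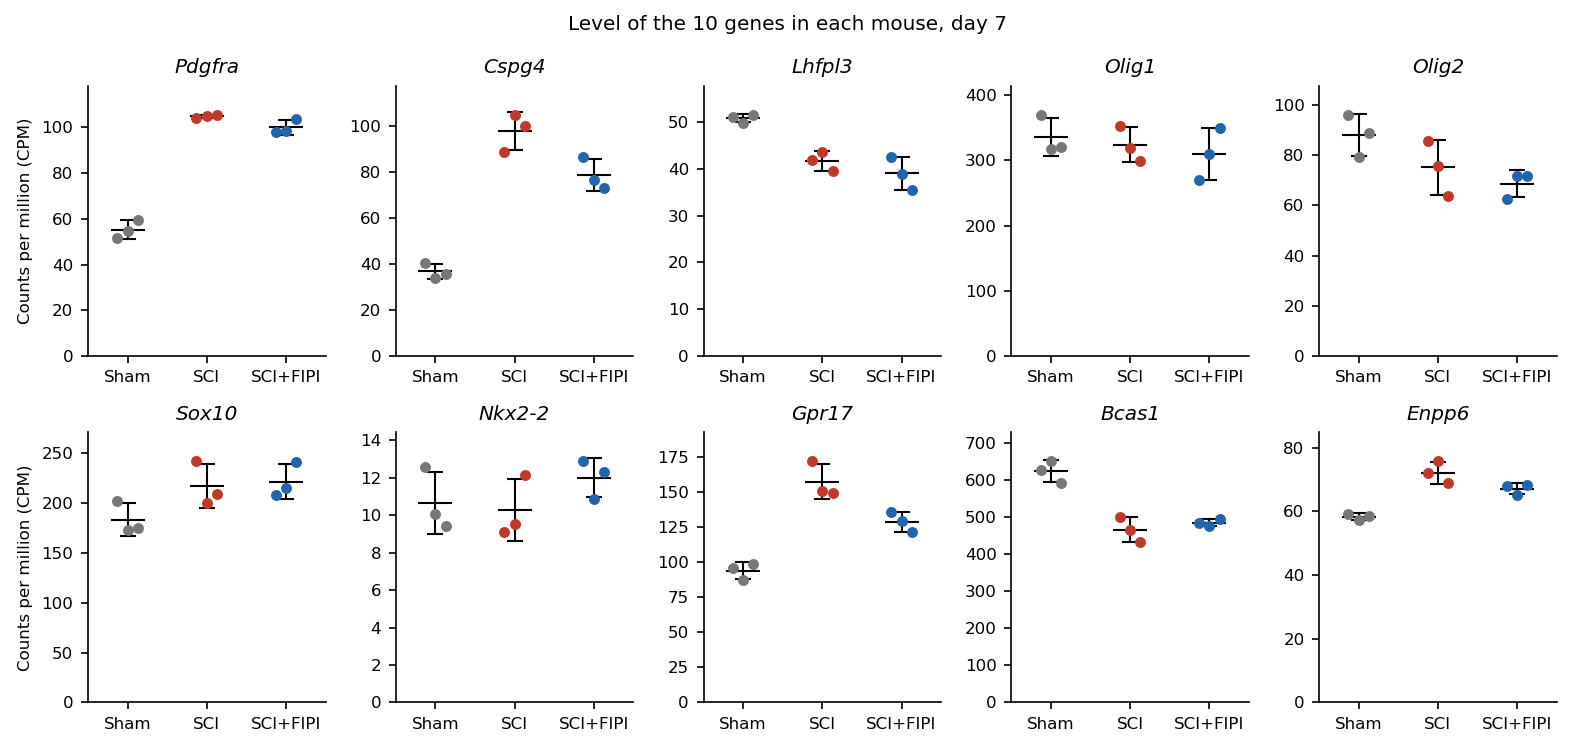
Level of each of the 10 genes in CPM (vertical axes, starting at 0) in the 3 mice of each group; points are mice, long ticks are means and bars are SD. Pdgfra, Cspg4 and Gpr17 were higher in every injured mouse than in every Sham mouse, while the Olig1 and Nkx2-2 values of the groups overlapped.

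The stretches just upstream of 4 of the genes are shown to set 2 that rose (Cspg4 and Pdgfra) beside 2 that did not pass both limits (Olig2 and Lhfpl3). They are from RefSeq on GRCm38.p6, plus strand, and end before the start of the gene in both RefSeq and GENCODE. Capitals mark matches on either strand to the SOX motif ACAANG, the E-box CAGNTG, the GC box GGGCGG or the TATA box TATAAA.
Cspg4, chr9:56864854-56865032: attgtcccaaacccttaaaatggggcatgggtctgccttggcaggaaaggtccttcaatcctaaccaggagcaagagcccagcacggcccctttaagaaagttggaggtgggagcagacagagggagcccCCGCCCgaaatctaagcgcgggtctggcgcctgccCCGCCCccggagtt
Pdgfra, chr5:75152001-75152250: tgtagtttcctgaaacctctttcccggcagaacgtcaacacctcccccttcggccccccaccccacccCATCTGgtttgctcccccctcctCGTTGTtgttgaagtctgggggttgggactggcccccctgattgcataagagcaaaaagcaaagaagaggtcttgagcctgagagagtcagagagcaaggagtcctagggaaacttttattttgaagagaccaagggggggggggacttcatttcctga
Olig2, chr16:91225300-91225456: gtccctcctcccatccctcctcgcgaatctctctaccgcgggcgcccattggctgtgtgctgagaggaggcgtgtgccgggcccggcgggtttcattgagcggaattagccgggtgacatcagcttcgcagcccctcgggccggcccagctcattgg
Lhfpl3, chr5:22745804-22746053: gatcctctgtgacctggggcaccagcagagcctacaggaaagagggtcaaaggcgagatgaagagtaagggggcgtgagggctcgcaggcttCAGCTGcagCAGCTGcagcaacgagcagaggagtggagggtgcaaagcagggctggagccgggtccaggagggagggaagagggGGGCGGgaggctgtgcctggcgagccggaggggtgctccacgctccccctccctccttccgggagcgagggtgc

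The upstream stretches differed in base composition and in matches. The Cspg4 stretch was 60.3% G and C and held 2 GC boxes, while that of Pdgfra was 54.4% G and C with 1 SOX match and 1 E-box. The Olig2 stretch of 157 bases was 66.9% G and C and had no match, while its whole window of 300 bases, which runs past the start of the gene, held 1 SOX match, 2 GC boxes and 1 TATA box. In Lhfpl3, 2 E-boxes lay beside each other with 1 GC box downstream. RefSeq windows of 300 bases were found for 6 of the 10 genes. Among 32851 promoter windows of that length, 41.2% held the SOX motif, 51.4% the E-box, 35.7% the GC box and 13.6% the TATA box, so each motif except the last is common and a match is a description only.

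Pdgfra (chr5:75152292-75198215, plus strand, GRCm38, protein coding) encodes the alpha receptor for platelet-derived growth factor, which keeps precursors dividing. Its level was 51.7, 54.6 and 59.6 CPM in the Sham mice, 104.1, 105.1 and 105.5 CPM in the SCI mice, and 97.8, 98.5 and 103.85 CPM in the SCI+FIPI mice. All injured mice lay above all Sham mice, and the SCI mice differed from each other by 0.683% (coefficient of variation), the lowest of any of the 10 genes in any group. The log2 fold change of SCI against Sham was 0.92 ± 0.06 (SE), with an adjusted p of 6.83e-09. The SCI+FIPI mice all lay just below the SCI mice, but the log2 difference of -0.07 had a 95% interval of -0.20 to 0.06 and an adjusted p of 0.527.

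Cspg4 (chr9:56865033-56899870, plus strand) encodes NG2, the surface proteoglycan by which precursors are stained. It was 40.6, 34.1 and 35.6 CPM in the Sham mice, 88.9, 104.9 and 99.9 CPM in the SCI mice, and 86.6, 76.7 and 73.3 CPM in the SCI+FIPI mice. The 3 groups did not overlap, with Sham lowest and SCI highest. Its rise in SCI was the largest of the 10 genes, with a log2 fold change of 1.41 ± 0.09 (SE) and an adjusted p of 3.87e-09. In SCI+FIPI compared with SCI, the log2 fold change was -0.31 ± 0.08 (SE) with an adjusted p of 0.0301, which is under the fold limit. Without SCI replicate 2, SCI replicate 3, SCI+FIPI replicate 2 or SCI+FIPI replicate 3 the adjusted p was 0.121, 0.098, 0.134 and 0.112, so the adjusted p under 0.05 depended on each of those mice.

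Lhfpl3 (chr5:22746059-23275597, plus strand) encodes a tetraspan membrane protein and is a transcript enriched in precursors. It went the other way from Pdgfra and Cspg4. The Sham mice were at 51.1, 49.9 and 51.5 CPM, the SCI mice at 41.9, 43.7 and 39.4 CPM, and the SCI+FIPI mice at 42.6, 38.9 and 35.6 CPM. Every injured mouse was below every Sham mouse. The log2 fold change of SCI against Sham was -0.29 ± 0.07 (SE) with an adjusted p of 0.00267, under the fold limit. SCI+FIPI differed from SCI by -0.10 on the log2 scale (95% interval -0.25 to 0.06, adjusted p 0.451) and their mice overlapped. A noncoding transcript on the opposite strand, A930003O13Rik, shares 567 exonic bases with Lhfpl3 and was at 1.54 CPM in Sham and 2.94 CPM in SCI, opposite in direction to Lhfpl3.

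The surface genes shared by other cell types were measured beside those cells' markers. Of all genes tested, 24.4% rose in SCI and 22.5% fell. Of 9 fibroblast markers tested, 8 rose in SCI, and their summed level went from 346.8 to 967.2 CPM in Sham to 9145 to 12313 CPM in SCI, and was 8466 to 10798 CPM in SCI+FIPI. Tcf21 of that list did not pass the filter on low counts. Of 11 pericyte and mural markers, 7 rose, with a summed level of 391.7 to 460.2 CPM in Sham, 929.2 to 1075 CPM in SCI and 814.9 to 844.4 CPM in SCI+FIPI. Under FIPI 1 of these 11 fell compared with SCI, beside 0.695% of all genes. This was the pericyte gene Rgs5, lower by 0.51 on the log2 scale with an adjusted p of 0.00412. It did not pass the fold limit with upper-quartile factors (-0.48), with at least 10 counts in every mouse (-0.50), or without SCI replicate 2 (-0.47), SCI replicate 3 (-0.48), SCI+FIPI replicate 2 (-0.48) or SCI+FIPI replicate 3 (-0.45). The part of these cells in the Pdgfra and Cspg4 results was not tested.

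Olig1 and Olig2, neighbouring genes on chromosome 16, encode basic helix-loop-helix factors that specify the lineage. Olig1 (chr16:91269772-91271933, plus strand) was at 369.6, 316.9 and 321.1 CPM in the Sham mice, 352.4, 319.3 and 299.2 CPM in the SCI mice, and 270.3, 309.8 and 348.8 CPM in the SCI+FIPI mice. These values overlapped throughout. The log2 difference of SCI from Sham was -0.05 (95% interval -0.26 to 0.15, adjusted p 0.641), and its sign turned when Sham replicate 1 (0.02) or SCI replicate 3 (0.0036) was left out. With FIPI it was -0.06 against SCI (95% interval -0.27 to 0.14, adjusted p 0.734). In SCI+FIPI compared with Sham it was -0.12 with an adjusted p of 0.31. That p was 0.0111 with offsets for GC content and length.

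Olig2 (chr16:91225457-91228677, plus strand) was at 96.1, 79.2 and 89.1 CPM in the Sham mice and at 85.9, 75.9 and 63.8 CPM in the SCI mice. The SCI+FIPI mice were at 62.5, 71.6 and 71.8 CPM, all below the Sham mice. The log2 difference of SCI from Sham was -0.23 ± 0.11 (SE) with an adjusted p of 0.0781. In 7 of 20 alternatives that p was under 0.05, among them upper-quartile factors (0.0288), no filter (0.00808), offsets for GC content and length (0.00434), and the fits without Sham replicate 2 (0.0327) or SCI replicate 1 (0.00889). In SCI+FIPI compared with Sham it was -0.36 ± 0.11 (SE) with an adjusted p of 0.0124, under the fold limit. With offsets for GC content and length the latter was -0.52 and Olig2 passed both limits. SCI+FIPI and SCI overlapped, with a log2 difference of -0.13 (95% interval -0.36 to 0.10, adjusted p 0.493).

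Sox10 (chr15:79154908-79165240, minus strand) encodes the high-mobility-group factor that switches on the oligodendrocyte program. Its level was 201.9, 172.8 and 175.2 CPM in the Sham mice, 241.6, 200.2 and 208.5 CPM in the SCI mice, and 207.6, 214.9 and 241.3 CPM in the SCI+FIPI mice. The lowest SCI mouse was just below the highest Sham mouse. The log2 difference of SCI from Sham was 0.24 ± 0.09 (SE), with an adjusted p of 0.0223 that was 0.0893 with upper-quartile factors and up to 0.111 when a mouse was left out. In SCI+FIPI compared with SCI it was 0.03 (95% interval -0.15 to 0.21, adjusted p 0.873). Of 9 Schwann cell markers tested, 3 rose in SCI, against 24.4% of all genes tested. Their summed level was 348.6 to 627.2 CPM in Sham, 581.2 to 724.2 CPM in SCI and 430.4 to 998.6 CPM in SCI+FIPI. The part of Schwann cells in the Sox10 values was not tested.

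Nkx2-2 (chr2:147177546-147194243, minus strand) encodes a homeodomain factor needed for differentiation, and had the fewest counts of the 10 genes. It was at 12.6, 10.1 and 9.40 CPM in the Sham mice, 9.10, 9.51 and 12.2 CPM in the SCI mice, and 12.9, 10.9 and 12.3 CPM in the SCI+FIPI mice. The groups overlapped in all 3 comparisons. SCI differed from Sham by -0.06 on the log2 scale (95% interval -0.35 to 0.24, adjusted p 0.746), and SCI+FIPI from SCI by 0.23 (95% interval -0.07 to 0.52, adjusted p 0.334). These mice do not exclude true differences within those intervals.

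Gpr17 (chr18:31942997-31949636, minus strand) encodes a receptor that is on in committed precursors and off again in mature oligodendrocytes. The Sham mice were at 95.8, 86.9 and 98.7 CPM, the SCI mice at 171.6, 150.3 and 149.5 CPM, and the SCI+FIPI mice at 135.4, 128.8 and 121.2 CPM. The 3 groups did not overlap, with SCI+FIPI between the others. In SCI the log2 fold change was 0.74 ± 0.07 (SE) with an adjusted p of 3.28e-07. In SCI+FIPI compared with SCI it was -0.29 ± 0.07 (SE) with an adjusted p of 0.0214, under the fold limit. Without SCI replicate 1, SCI+FIPI replicate 2 or SCI+FIPI replicate 3 the adjusted p was 0.0539, 0.09 and 0.0833. The gene Lims2 on the opposite strand shares 188 exonic bases and was at 24.2 CPM in Sham and 34.7 CPM in SCI, a log2 fold change of 0.52, and the strand setting of the counting is not given in the sources used here.

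Bcas1 (chr2:170346991-170427845, minus strand) encodes a protein of premyelinating and early myelinating oligodendrocytes. It was at 627.2, 649.6 and 591.2 CPM in the Sham mice, 500.6, 466.1 and 431.6 CPM in the SCI mice, and 484.8, 476.7 and 493.3 CPM in the SCI+FIPI mice. Every injured mouse was below every Sham mouse, the reverse of Gpr17. The log2 difference of SCI from Sham was -0.42 ± 0.07 (SE) with an adjusted p of 6.49e-05, under the fold limit. SCI+FIPI and SCI overlapped, with a log2 difference of 0.06 (95% interval -0.09 to 0.20, adjusted p 0.651).

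Enpp6 (chr8:46986887-47096762, plus strand) encodes a choline phosphodiesterase of newly forming oligodendrocytes. It was at 59.3, 57.3 and 58.5 CPM in the Sham mice, 72.0, 75.7 and 68.9 CPM in the SCI mice, and 67.9, 65.1 and 68.4 CPM in the SCI+FIPI mice. The groups did not overlap, and SCI+FIPI lay between Sham and SCI. The log2 difference was 0.31 ± 0.06 (SE) in SCI against Sham, with an adjusted p of 0.000235 and under the fold limit. SCI+FIPI against SCI gave -0.10 (95% interval -0.23 to 0.02, adjusted p 0.27).

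**Figure D2:**
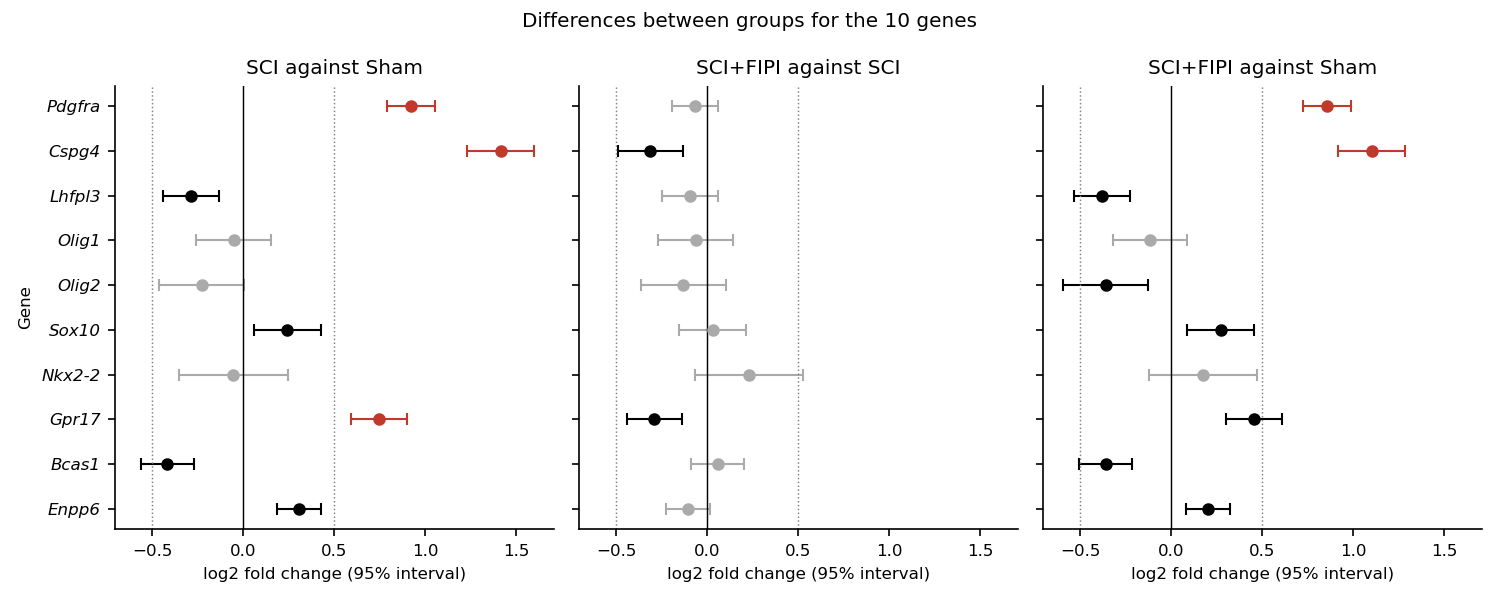
Log2 fold changes of the 10 genes (horizontal axes) with 95% intervals in the 3 comparisons; red points passed both limits as rises, black points passed the adjusted p alone, grey points passed neither, and dotted lines stand at -0.5 and 0.5. The largest rise, that of Cspg4 in SCI, was 1.41, and no gene passed both limits in SCI+FIPI against SCI.

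FIPI-treated and vehicle-treated injured cords were thus compared on 10 genes, of which 0 passed both limits by edgeR, DESeq2 or limma-voom. Only Cspg4 and Gpr17 had an adjusted p under 0.05 or an unadjusted p under 0.05, both lower with FIPI, where 9.63% of all genes passed the adjusted p alone. The mice of the groups did not overlap for 4 of the 10 genes, Pdgfra, Cspg4, Gpr17 and Enpp6, all lower with FIPI, and 30.2% of all genes did not overlap, 15.7% higher and 14.5% lower. The SCI mice are shared with the comparison to Sham, so the rise of a gene in SCI and its lower value with FIPI are not independent of each other.

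FIPI-treated injured cords were also set against Sham, to show how much of the injury difference was present under treatment. Cspg4 (log2 fold change 1.10, adjusted p 9.3e-08) and Pdgfra (0.86, adjusted p 3.25e-08) were the 2 of 10 genes that rose, 0 fell, and 38.1% of all genes passed both limits, 21.2% as rises and 17.0% as falls. Gpr17 was 0.45 higher, short of the fold limit, with an adjusted p of 7.09e-05. By the adjusted p alone 8 of the 10 genes passed, 5 as higher and 3 as lower, against 59.1% of all genes. The mice of these groups did not overlap for 8 of the 10 genes, 5 higher and 3 lower with injury and FIPI, against 66.3% of all genes, 33.4% higher and 32.9% lower. The lower genes were Lhfpl3 (-0.38), Olig2 (-0.36) and Bcas1 (-0.36). Sox10 was 0.27 higher, with an adjusted p of 0.0138. That p was 0.0591 without Sham replicate 2, 0.0562 without Sham replicate 3 and 0.0693 without SCI+FIPI replicate 3.

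Set on a scale per length (FPKM), the genes differed widely from each other. In Sham mice Bcas1 (166 ± 9.93 FPKM, SD, n = 3) and Olig1 (156 ± 13.1 FPKM) were highest and overlapped. Sox10 at 60.5 ± 5.12 FPKM, Olig2 at 35.1 ± 3.05 FPKM and Gpr17 at 18.2 ± 0.968 FPKM followed without overlap. Lowest were Nkx2-2 (3.74 ± 0.578 FPKM) and Cspg4 (3.10 ± 0.270 FPKM), which overlapped. In SCI mice Olig1 was above Bcas1 with no overlap, Gpr17 and Olig2 overlapped at 29.9 ± 2.44 and 29.3 ± 4.33 FPKM, and Cspg4 at 8.10 ± 0.657 FPKM was above Nkx2-2 at 3.52 ± 0.572 FPKM.

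The balance of these genes within each mouse was described by ratios of FPKM, chosen after their values were seen and not tested. The ratio of Pdgfra to Bcas1 was 0.0311 to 0.0380 in Sham, 0.0783 to 0.0920 in SCI and 0.0760 to 0.0793 in SCI+FIPI. The ratio of Gpr17 to Bcas1 was 0.0972 to 0.121 in Sham, 0.234 to 0.252 in SCI and 0.178 to 0.203 in SCI+FIPI. All injured mice lay above all Sham mice for both ratios, which follows from the separation of each of these genes given above. The ratio of Cspg4 to Pdgfra was 0.501 to 0.659 in Sham, 0.718 to 0.839 in SCI and 0.593 to 0.744 in SCI+FIPI, so that the SCI+FIPI mice overlapped both other groups. These ratios do not depend on the library total. Bcas1 itself was lower in SCI than in Sham, and of 16 mature myelin genes 9 fell, beside 22.5% of all genes tested. The part of mature oligodendrocytes in the Bcas1 values, and of fibroblasts in the Pdgfra values, was not tested.

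**Figure D3:**
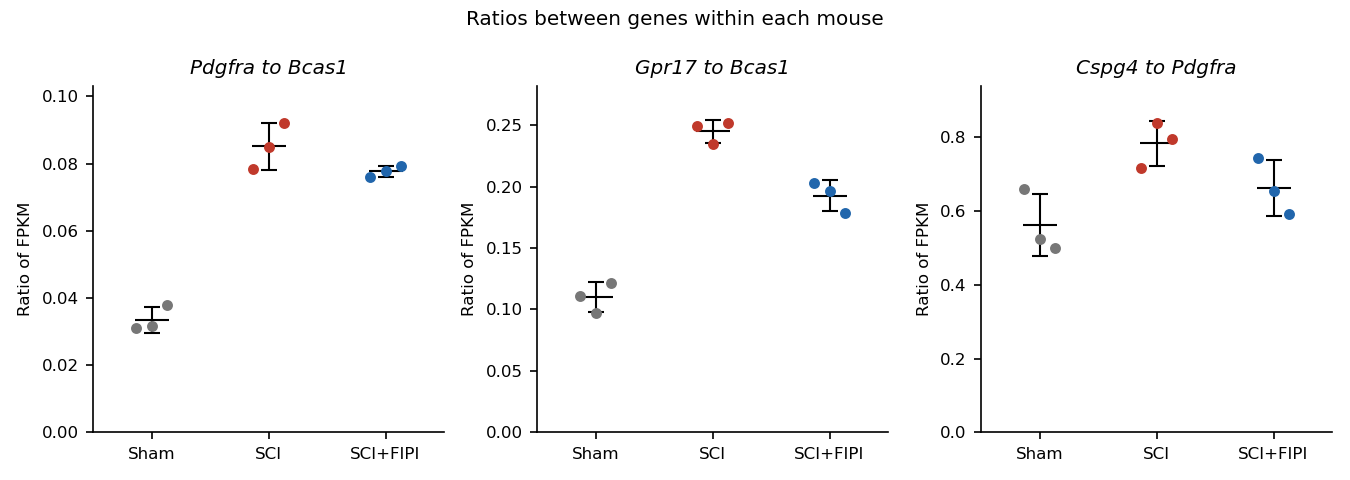
Ratios of FPKM between pairs of the genes in each mouse (vertical axes, starting at 0) by group; points are mice, long ticks are means and bars are SD. The ratio of Gpr17 to Bcas1 was at most 0.121 in Sham mice and at least 0.178 in injured mice.

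Other genes of the lineage were taken from lists. Of 20 further precursor-enriched genes, 4 rose in SCI, 5 fell and 11 did not pass both limits. Of all genes tested, 47.0% passed in this comparison, 24.4% as rises and 22.5% as falls, so the count is not above the background. The median log2 fold change of the 20 genes was -0.12. The proteoglycan Vcan (1.65 ± 0.08 SE), the matrix protein Matn4 (1.84 ± 0.10) and C1ql1 (1.26 ± 0.11) were among those that rose. The adhesion genes Pcdh15 (-1.12 ± 0.12), Dscam (-1.19 ± 0.10) and Megf11 (-1.26 ± 0.10), the factor Sox5 (-0.67 ± 0.10) and the receptor phosphatase Ptprz1 (-0.53 ± 0.08) fell. With offsets for GC content and length, Sox5 was at -0.25 and Ptprz1 at -0.11, and neither passed both limits. Ptprz1 also did not without SCI replicate 1 (-0.50) or SCI replicate 3 (-0.47). All 15 neuron markers fell in SCI as well, and the part of neurons in the falls of this list was not tested.

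Of 15 further genes of the differentiating stage, 11 rose in SCI and 0 fell, against 24.4% and 22.5% of all genes tested. Their median log2 fold change was 0.81. The Wnt effector Tcf7l2 rose by 1.40 ± 0.15 (SE), the small GTPases Rras2 by 1.47 ± 0.09 and Rap2a by 1.05 ± 0.07, the scaffold Cnksr3 by 1.28 ± 0.12 and the focal adhesion gene Tns3 by 0.81 ± 0.07. The deacetylase Sirt2 (0.60 ± 0.07), the calcium channel Itpr2 (0.69 ± 0.07) and the ligand Bmp4 (1.00 ± 0.33, adjusted p 0.0309) also rose, and Bmp4 no longer passed with offsets for GC content and length, with no filter, or without Sham replicate 3, SCI replicate 1 or SCI replicate 3, where its adjusted p was 0.0583, 0.0763, 0.062, 0.0871 and 0.107. Several of these genes are also used by other cells of the injured cord. Of 10 microglia and macrophage markers, 9 rose in SCI, with a summed level of 495.4 to 689.4 CPM in Sham and 6822 to 8261 CPM in SCI (5027 to 6356 CPM in SCI+FIPI), and of 10 astrocyte markers 3 rose and 3 fell. The part of those cells in the list was not tested.

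Of 20 further regulators of transcription, 6 rose in SCI, 2 fell and 12 did not pass, with a median of 0.16. Of all genes tested, 24.4% rose and 22.5% fell, so this count is not above the background. The rises included Sox4 (1.55 ± 0.12 SE), which holds progenitors immature, Prrx1 (1.94 ± 0.15), Zfp488 (0.55 ± 0.09) and Nkx6-1 (0.52 ± 0.10), and the falls were St18 (-0.96 ± 0.09) and Sall3 (-0.59 ± 0.08). Nkx6-1 lay at 0.42 with offsets for GC content and length, and it did not pass both limits there, with upper-quartile factors, or without Sham replicate 1 (0.49), Sham replicate 2 (0.49) or SCI replicate 2 (0.46). Zfp488 did not pass with upper-quartile factors (0.49). Myrf, the factor that starts myelin transcription, did not pass (-0.11 ± 0.07, adjusted p 0.193). Of the fibroblast markers 8 of 9 rose in SCI, and of the pericyte and mural markers 7 of 11. The part of those cells in the Prrx1 values was not tested.

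Among mature myelin genes 0 of 16 rose in SCI and 9 fell, against 24.4% and 22.5% of all genes tested. Their median was -0.56. Ermn, a late cytoskeletal gene, fell by 1.24 ± 0.07 (SE) and Opalin by 1.22 ± 0.09. Mbp, the basic protein of myelin, was at -0.36 ± 0.08 with an adjusted p of 0.00157, under the fold limit.

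**Figure D4:**
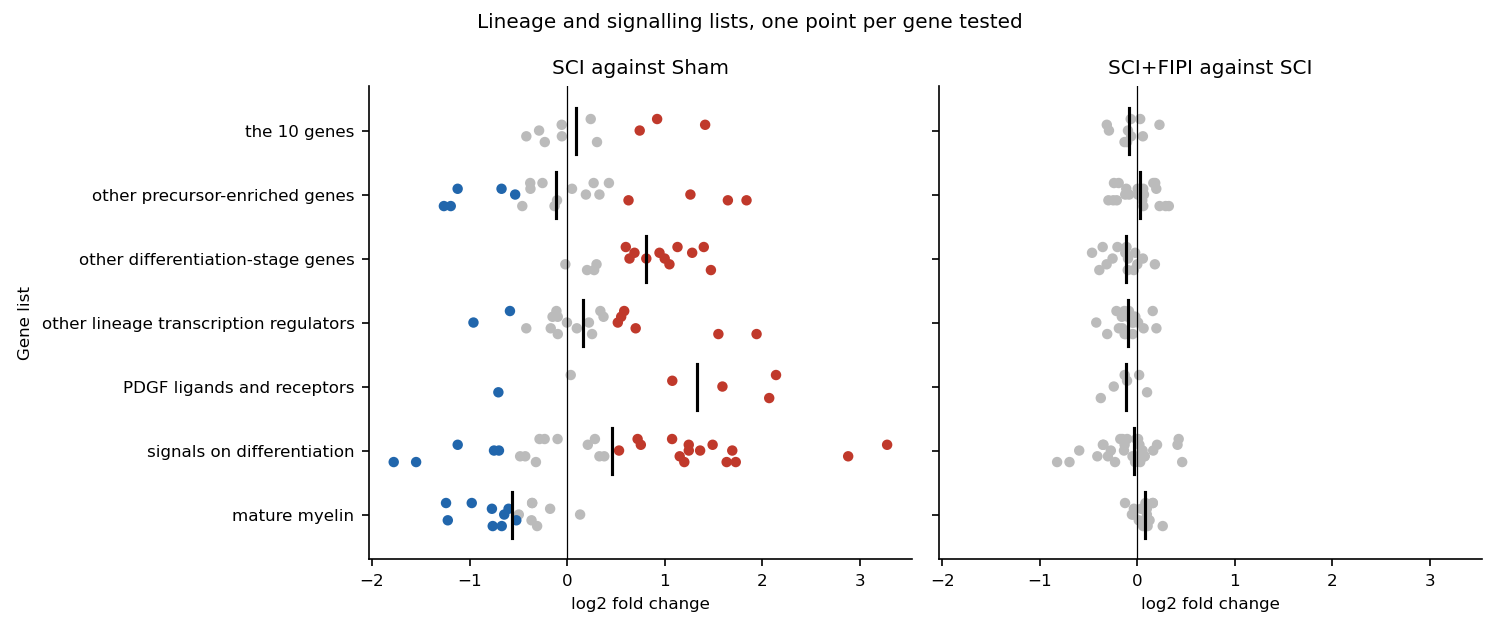
Log2 fold changes (horizontal axes) of the 10 genes and of 6 lists of related genes in SCI against Sham and in SCI+FIPI against SCI; each point is a gene, red and blue points passed both limits as rises and falls, and black bars are medians. The median of the differentiating-stage list was 0.81 and that of mature myelin -0.56 in SCI, and no gene of these lists passed both limits in SCI+FIPI against SCI.

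Ligands and receptors of platelet-derived growth factor were measured beside Pdgfra. Of 6 genes, 4 rose in SCI and 1 fell, against 24.4% and 22.5% of all genes tested. Pdgfa, the ligand for the alpha receptor that precursors depend on, was at 39.1 CPM in Sham and 40.1 CPM in SCI (log2 difference 0.04 ± 0.08 SE, adjusted p 0.713), and its sign turned with upper-quartile factors, with offsets for GC content and length and without Sham replicate 3. Pdgfb (1.08 ± 0.11) and Pdgfc (1.59 ± 0.11) rose, Pdgfrb, the receptor of pericytes and fibroblasts, rose by 2.07 ± 0.13, Pdgfrl by 2.14 ± 0.13, and Pdgfd fell by 0.70 ± 0.08.

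Signals known to hold back or drive differentiation gave 15 rises and 5 falls in SCI among 30 genes tested. Of all genes tested, 24.4% rose and 22.5% fell. Cntf did not pass the filter. Of the Notch pathway, the receptor Notch1 (0.72 ± 0.08 SE), the ligand Jag1 (1.49 ± 0.14) and the target Hes1 (1.15 ± 0.15) rose. The ligand Dll1 (-0.70 ± 0.15) and the target Hes5 (-1.78 ± 0.47) fell. Hes5 went from 0.635 to 0.181 CPM, near the limit of detection, and did not have 10 counts in every mouse. Id1 (1.36 ± 0.11) and Id3 (1.73 ± 0.07), inhibitors of helix-loop-helix factors such as the Olig proteins, rose. The growth factor Igf1 went from 24.7 to 183 CPM (2.88 ± 0.32), the chemokine receptor Cxcr4 rose by 3.28 ± 0.19, the cytokine Lif by 1.69 ± 0.25, and the mitogen Fgf2 by 1.08 ± 0.09. The Wnt inhibitor Apcdd1 (1.20 ± 0.06), the ligand Gas6 (0.76 ± 0.07), its receptor Axl (1.25 ± 0.07) and the leukotriene receptor Cysltr1 (1.64 ± 0.23) rose. Nrg1 (-1.55 ± 0.10), the receptor Fgfr2 (-0.75 ± 0.07) and the brake on myelination Lingo1 (-1.12 ± 0.08) fell. All 15 neuron markers also fell in SCI, with a summed level of 8949 to 10154 CPM in Sham and 2820 to 3961 CPM in SCI, and the part of neurons in the Nrg1 and Lingo1 values was not tested. The 9 of 10 microglia and macrophage markers that rose, with the summed levels given above, stand beside Igf1, Cxcr4, Axl and Cysltr1, which those cells also use, and their part in these values was not tested.

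In SCI+FIPI compared with SCI, 0 genes of the lists of precursor, differentiating, regulator, PDGF, signal and myelin genes passed both limits by edgeR. Of all genes tested, 3.06% did. At an unadjusted p under 0.05 there were 9 of 20, 5 of 15, 5 of 20, 2 of 6, 11 of 30 and 2 of 16, against 25.2% of all genes tested. DESeq2 and limma-voom passed 0 except for 1 signal gene each, Cysltr1 (log2 fold change -0.69 in edgeR, adjusted p 0.0541). By edgeR Cysltr1 passed both limits with no filter (-0.70, adjusted p 0.0241), with at least 10 counts in every mouse (-0.69, adjusted p 0.0477), with offsets for GC content and length (-0.74, adjusted p 0.0366) and without SCI replicate 1 (-0.82) or SCI+FIPI replicate 1 (-0.90), and its adjusted p reached 0.234 without SCI+FIPI replicate 2. Lif (-0.60, adjusted p 0.112) passed with no filter (adjusted p 0.0297). By the adjusted p alone, 4 of 15 differentiating genes were lower with FIPI, against 9.63% of all genes in either direction. They were Rras2 (-0.39, adjusted p 0.0126), Rap2a (-0.31, adjusted p 0.016), Cnksr3 (-0.46, adjusted p 0.0258) and Tns3 (-0.25, adjusted p 0.0363). Vcan (-0.30, adjusted p 0.0314) and Nkx6-1 (-0.42, adjusted p 0.0193) were lower as well. When single mice were left out, the highest adjusted p of these was 0.0676 for Rras2, 0.0942 for Rap2a, 0.126 for Cnksr3 and 0.103 for Nkx6-1, each without SCI+FIPI replicate 2, and 0.165 for Tns3 and 0.14 for Vcan, both without SCI replicate 2. Fitted only to the groups compared, edgeR gave 0.0526 for Cnksr3, 0.0641 for Tns3 and 0.0636 for Vcan. Cnksr3 passed both limits without SCI replicate 1 (-0.56) or SCI+FIPI replicate 3 (-0.59).

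Among the 30 signals tested, 3 were higher with FIPI by the adjusted p alone and 1 was lower. Of all genes, 9.63% passed in this way in either direction, so the count is near the background. Id4 (0.42, adjusted p 0.0122), an inhibitor of oligodendrocyte differentiation, Lingo1 (0.41, adjusted p 0.00844) and Nrg1 (0.46, adjusted p 0.0147) were higher, and Id2 (-0.30, adjusted p 0.0251) was lower. Without SCI+FIPI replicate 2 the adjusted p was 0.0705 for Id4, 0.0509 for Lingo1, 0.086 for Nrg1 and 0.127 for Id2. Without SCI replicate 1 Id4 (0.52), Lingo1 (0.50) and Nrg1 (0.55) passed both limits, as did Id4 without SCI+FIPI replicate 3 (0.50) and Nrg1 without SCI+FIPI replicate 1 (0.51). Aspa (0.26, adjusted p 0.0258), the aspartoacylase of oligodendrocytes, was the 1 of 16 myelin genes that passed the adjusted p alone. Its adjusted p was up to 0.128 when a mouse was left out. Of the 15 neuron markers, 8 rose with FIPI, against 2.36% of all genes. Their summed level was 4601 to 5435 CPM, and the part of neurons in the Lingo1 and Nrg1 values was not tested.

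Genes whose pattern over the 9 mice was closest to that of each of the 10 were found among 14552 tested genes, as the smallest root mean square difference of centred log2 CPM. For Pdgfra these were Ssr2 (0.0396), Ttc23 (0.0518) and Rab8a (0.0580). For Cspg4 they were Actn1 (0.0535) and Myo1e (0.0672), and for Gpr17 Sugct (0.0563), Susd1 (0.0595) and Panx1 (0.0668). The closest gene was Arap2 for Lhfpl3, Dusp16 for Olig1, Ttc41 for Olig2, Mtx1 for Sox10, 1810014B01Rik for Nkx2-2, Mrps27 for Bcas1 and Nmt1 for Enpp6, at differences between 0.0285 for Enpp6 and 0.0800 for Nkx2-2. None of the 10 genes was among the closest of another.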

How the data were processed

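After trimming of adapters and poor-quality bases, the authors counted reads per gene and deposited raw counts of 52550 Ensembl genes in 9 mice. The submitters' processing notes name GRCm38 and R 4.2.3, while aligner, counter, annotation and strand setting are not given in the sources used here. Symbols, positions and lengths came from GENCODE M21 (52403 identifiers matched). The 10 genes and all lists were chosen with earlier results of these data known. Named genes were the 10, list genes chosen for their role, and for each of the 10 the 3 closest in pattern, and some genes under this rule are not reported here. edgeR 4.0.16 in R 4.3.3 was fitted to all 9 mice after TMM scaling (factors 0.985 to 1.02) and filterByExpr (18699 genes), with a mean per group and Benjamini-Hochberg adjustment over all genes tested. FPKM was the count per total count and exonic length. Mice of a group differed by more than sampling noise (chi-square per gene 6.62 to 12.9). DESeq2 1.42.0 and limma-voom 3.58.1 were alternatives. Offsets for GC content and length covered 99.9% of genes tested. They were first computed without centring, which moved the median of all genes, and the centred form was adopted after those values had been seen. Selected values of both forms are given. On data simulated for SCI+FIPI against SCI over 18699 genes, edgeR recovered 48 of 100 genes changed 1.5-fold and 72 of 100 changed 2-fold with 3 false calls. The changed genes were drawn at random from all genes tested, so these rates do not give the power for the 10 genes. Figures used matplotlib 3.10.9.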

Additional observations from a re-analysis of the deposited data

How the results depend on the processing

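Over 20 alternatives for each of the 10 genes and comparisons, 581 of 600 fold changes kept their direction and their side of the limits. Cspg4 and Pdgfra rose in SCI and in SCI+FIPI against Sham in all of them. Gpr17 rose in SCI in all but the offsets for GC content and length without centring. That form was computed first, and the centred form was adopted after its values had been seen. Those offsets moved the median log2 fold change of all genes by -0.139 in SCI and -0.147 in SCI+FIPI against Sham. There Gpr17 was at 0.486 in SCI, Olig2 at -0.55 and -0.70 and Bcas1 at -0.67 and -0.60. Thus 4 of the 10 genes passed in each comparison with Sham, 2 higher and 2 lower. Of the 18672 genes tested with these offsets, 8969 passed both limits in SCI and 7470 in SCI+FIPI against Sham. Relative to the shifted median Gpr17 was at 0.63, Olig2 at -0.41 and -0.56, and Bcas1 at -0.54 and -0.45. Without centring, Olig1 was at -0.32 in SCI (adjusted p 0.00167) and -0.43 in SCI+FIPI against Sham (adjusted p 0.000181), under the fold limit. Nkx2-2 was at -0.40 in SCI (adjusted p 0.0213). Sox10 was at 0.05 in SCI (adjusted p 0.562) and 0.04 in SCI+FIPI against Sham (adjusted p 0.646). With centred offsets Olig2 passed in SCI+FIPI against Sham (-0.52), and Olig1 there had an adjusted p of 0.0111.

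With no fold limit 7, 2 and 8 of the 10 genes passed in SCI against Sham, SCI+FIPI against SCI and SCI+FIPI against Sham, and with a log2 limit of 1 there was 1 in each comparison with Sham. Over the 18699 genes tested, no fold limit gave 12315 (65.9%), 1800 (9.63%) and 11060 (59.1%) in these comparisons, in the same order. The limit of 1 gave 5059, 65 and 3376 of them. An adjusted p under 0.01 gave 207 in SCI+FIPI against SCI. That comparison ranged from 189 genes without SCI+FIPI replicate 2 to 1038 without SCI replicate 1, against 572 with all mice. The cause was not tested.

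Signs turned for differences near 0. Pdgfa in SCI was at -0.0281 with upper-quartile factors, -0.0958 with the offsets, -0.0927 with offsets and block, -0.2743 with uncentred offsets and from -0.0512 to 0.1341 when a mouse was left out. Sox10 in SCI+FIPI against SCI was at -0.0066, -0.0038 and -0.0084 with these 3 forms of offsets and from -0.0378 to 0.1194 without a mouse. Nkx2-2 in SCI+FIPI against Sham was at -0.1706 with uncentred offsets. Without a mouse, Olig1 in SCI ranged from -0.1202 to 0.0195, Nkx2-2 in SCI from -0.1913 to 0.0737, and Olig1 in SCI+FIPI against SCI from -0.1586 to 0.0239.

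Replicate numbers are shared by different animals. Correlations of same-numbered mice of different groups ran from -0.0726 to 0.108, with 1 of 9 over 0.1. Those of differently numbered mice ran from -0.108 to 0.0889. With 3 mice a group these values cannot exclude a shared batch or pairing, and the main fit treats the mice as unpaired. With the replicate block 3, 0 and 2 of the 10 genes passed in the 3 comparisons, and 8744, 555 and 7115 genes in all. In SCI+FIPI against SCI the block took the adjusted p of Tns3 from 0.0363 to 0.0605 and that of Id2 from 0.0251 to 0.0503.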
